A study of Mus musculus with 9 samples.

Results

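MicroRNAs (miRNAs) of the olfactory bulb were compared between mice that inhaled formaldehyde (FA) for 1 day and control mice. The FA 1 day mice breathed 3 ppm for 6 hours in a chamber, and the control mice were handled alike without the gas. All were 8-week-old males of the outbred ICR strain. Each group holds 3 arrays, numbered 1, 2 and 4 for FA 1 day and 1, 2 and 3 for control, and 3 arrays of mice exposed to the same dose for 7 days enter only the normalization and the estimate of the spread. The labels do not say whether an array holds 1 animal or a pool, so the p-values measure the spread between these samples, which may be technical. Followed here are the mouse probes whose mean signal over background reached 30 intensity units on all 3 arrays of either group. There are 456 of them among 1027 mouse probes, and 14 of the 456 name several miRNAs.

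A miRNA is a short RNA cut from a hairpin precursor, which can yield a product from its 5p arm and another from its 3p arm. Loaded into an Argonaute protein, it lowers the stability and translation of messenger RNAs, mainly through its seed, bases 2 to 8 counted from the 5′ end, so that miRNAs with equal seeds share many targets. The olfactory bulb receives the axons of the sensory neurons of the nose, the tissue that an inhaled irritant meets first. It also takes in new interneurons throughout adult life, and it holds glia, vessels, blood and covering meninges, all of which contribute RNA to a dissected bulb.

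The miRNAs below carry the patterns described, and 347 of the 456 probes could be matched to a mature sequence. The sequences and positions are those of RefSeq on GRCm38.p6, written 5′ to 3′ with the seed in capitals. The first 3 come from neighbouring genes on the plus strand of chromosome 1, Mir199a-2 (chr1:162217844-162217866 for the 5p and chr1:162217883-162217904 for the 3p product) and Mir214 (chr1:162223438-162223459). A second gene, Mir199a-1 on the minus strand of chromosome 9 (chr9:21496537-21496559 for the 5p product), encodes the same pair, and a probe cannot tell the copies apart.
miR-199a-5p: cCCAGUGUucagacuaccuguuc
miR-199a-3p: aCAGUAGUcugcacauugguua
miR-214-3p: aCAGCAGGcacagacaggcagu
The next 6 share the seed AAAGUGC and come from 3 paralogous gene clusters, on chromosomes 14 (miR-17 and miR-20a), X (miR-106a and miR-20b) and 5 (miR-93 and miR-106b).
miR-17-5p: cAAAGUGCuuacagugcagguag
miR-20a-5p: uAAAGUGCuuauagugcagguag
miR-106a-5p: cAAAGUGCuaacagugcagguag
miR-20b-5p: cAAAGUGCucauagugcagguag
miR-93-5p: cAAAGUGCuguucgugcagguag
miR-106b-5p: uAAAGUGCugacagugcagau
The following 3 share the seed CAGUGCA, although their genes lie on chromosomes 6, 15 and 11.
miR-148a-3p: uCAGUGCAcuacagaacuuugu
miR-148b-3p: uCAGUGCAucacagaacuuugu
miR-152-3p: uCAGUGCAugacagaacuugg
Both miR-146 products have the seed GAGAACU and are shown because their differences were unlike.
miR-146a-5p: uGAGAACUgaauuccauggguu
miR-146b-5p: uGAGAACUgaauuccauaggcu
The last ones are the arms of a hairpin that differed from each other, and single miRNAs taken up below.
miR-291b-5p: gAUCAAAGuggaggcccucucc
miR-291b-3p: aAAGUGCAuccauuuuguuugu
miR-204-5p: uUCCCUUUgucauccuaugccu
miR-204-3p: gCUGGGAAggcaaagggacgu
let-7d-5p: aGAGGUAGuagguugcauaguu
let-7d-3p: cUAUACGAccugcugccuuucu
miR-144-5p: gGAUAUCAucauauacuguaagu
miR-205-5p: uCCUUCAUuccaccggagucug
miR-7a-5p: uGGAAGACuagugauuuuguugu
miR-3104-3p: aCGCUCUGcuuugcucccccaga

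The data are fluorescence intensities, put on a common distribution over the arrays and given as log2 levels, so that a difference of 1 is a doubling. No probe passed limma's moderated test between FA 1 day and control, neither among the 456 nor among all 462 probes tested (0%, threshold 0.05 after Benjamini-Hochberg adjustment). The lowest adjusted p was 0.636. Before adjustment 18 members were higher and 11 lower at p under 0.05, or 3.9% and 2.38% of the tested probes, beside the 5% that this threshold gives in both directions together when nothing differs. At the median standard error of 0.27 a 95% interval reached 0.62 to either side of a difference, and an exact permutation test of 3 against 3 arrays cannot go below 0.1. All differences named below are therefore given as measured values.

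Of the 456 members, 261 had a higher mean in FA 1 day than in control, 193 a lower one, and 2 (miR-124-3p and miR-9-3p) equal means. These counts include 56 members that entered through FA 1 day alone and 12 through control alone, so they may partly reflect the detection rule. The 3 FA 1 day arrays lay entirely above the 3 control arrays for 49 members and entirely below them for 20, which are 10.6% and 4.33% of the tested probes. Counting only the 388 members detected on all 6 arrays, which did not enter through 1 group alone, 37 lay above and 17 below. The split over all 462 tested probes turned with the scaling of the arrays. It was 45 above and 26 below in the authors' deposited ratios, 25 and 63 when each array was scaled to its median, and 25 and 67 without scaling between arrays. The median difference over all tested probes moved with it, from 0.06 in the values used here and 0.01 in the deposited ratios to -0.09 and -0.11, so a difference is best read against that median. The 12 members with the smallest unadjusted p in each direction, 24 in all, kept their sign under each of these scalings, also relative to the median. They were picked for their differences on these same arrays, the smallest being -0.39 for miR-7a-5p, so a kept sign is no independent evidence of a change.

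**Figure D1:**
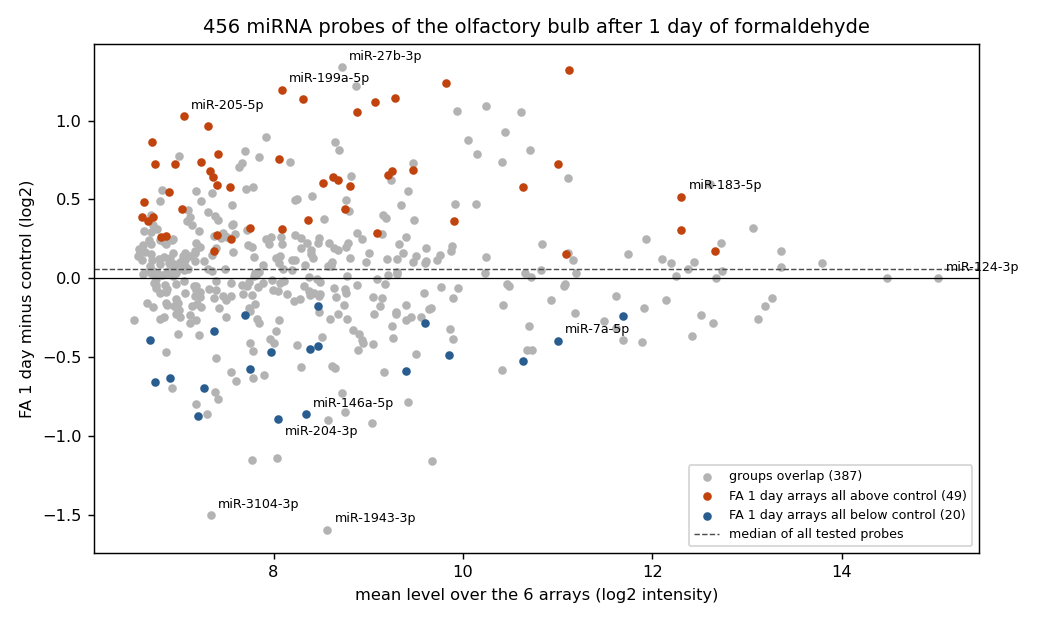
Each point is 1 of the 456 members, with its mean level over the 6 arrays (log2 intensity) on the horizontal axis and its difference, FA 1 day minus control (log2), on the vertical axis. The 49 members whose FA 1 day arrays all lie above control are orange, the 20 whose arrays all lie below are blue, and the dashed line is the median of all tested probes at 0.06.

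Control replicate 2 stood apart from the other arrays. Its level lay more than 1 log2 unit from the mean of the other 5 for 18.9% of the members, 54 of them below and 32 above, whereas the other 5 arrays did so for 0.439% to 3.51%. The typical spread of a member was 0.177 (median SD) over the FA 1 day arrays, against 0.344 over the control arrays and 0.160 over controls 1 and 3. Spike-in controls, which are added to the RNA and do not come from the bulb, deviated most on the same array among the 6 (0.715 root mean square, against 0.243 to 0.452). Leaving the array out turned the sign of 99 members. Of the 18 members that differed by more than 1, only miR-199a-5p, miR-205-5p, miR-20a-5p and miR-1943-3p still did without it. Of these, miR-205-5p entered through the FA 1 day arrays alone. The differences below are given with and without control replicate 2 where they depend on it.

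**Figure D2:**
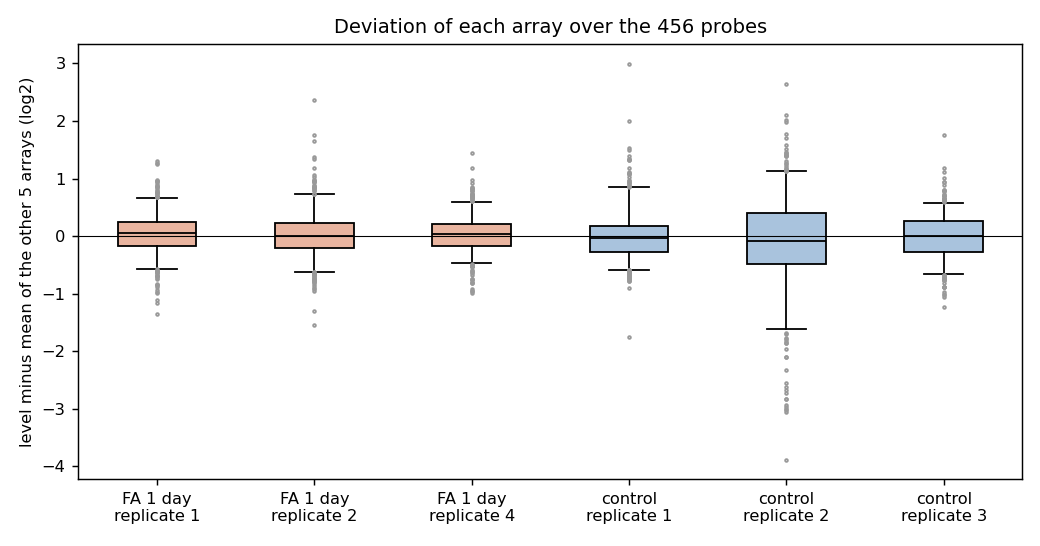
Each box shows, over the 456 members, the level on 1 array minus the mean of the other 5 (log2), with the FA 1 day arrays at the left and the control arrays at the right; a box spans the quartiles, the line is the median, whiskers reach the 5th and 95th percentiles and points lie beyond. Control replicate 2 has the widest box and the longest lower tail.

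Both arms of miR-199a, and miR-214-3p, were detected on all 6 arrays and had separated groups with higher levels after 1 day. These miRNAs are transcribed mainly in mesenchymal cells such as fibroblasts, pericytes and meninges, and the genes on chromosome 1 share a host transcript, Dnm3os. miR-199a-5p measured 8.88, 9.24 and 7.93 on FA 1 day arrays 1, 2 and 4, against 7.72, 7.21 and 7.54 on control arrays 1, 2 and 3. Its lowest FA 1 day array was above its highest control array, and the means of 8.68 ± 0.67 and 7.49 ± 0.26 (SD, n = 3 each) differed by 1.20. The 95% interval of this difference ran from 0.46 to 1.93, and limma's adjusted p was 0.636. The product of the other arm, miR-199a-3p, whose probe also reads the identical miR-199b-3p, was at 8.35, 7.60 and 7.43 after FA and at 7.07, 6.50 and 6.91 in control, a difference of 0.96. miR-214-3p had 7.85, 7.90 and 7.30 in FA 1 day bulbs and 7.26, 6.97 and 6.90 in control bulbs, which is 0.64 higher. FA 1 day array 4 was the lowest of its group for all 3. miR-199b-5p reached 7.32, 7.35 and 6.66 in FA 1 day, while no control array was above the detection minimum, with 6.37, 6.29 and 6.50. Measured against the lowest detectable signal it was at least 1.48-fold higher, with measured means of 7.11 and 6.39 and a limma adjusted p of 0.636. miR-199b-5p entered only through the FA 1 day arrays, so it is left out of the following median. The 3 others had a median difference of 0.96, against 0.06 over all tested probes, and between 0.69 and 1.15 when any 1 of the 6 arrays was left out. After 7 days of exposure the group means of the 4 were 7.61 (miR-199a-5p), 6.97 (miR-199a-3p), 7.15 (miR-214-3p) and 6.53 (miR-199b-5p). Taken as the median deviation of the 4 from their mean over the 6 arrays, FA 1 day arrays 1, 2 and 4 were at 0.68, 0.57 and -0.08, against -0.30, -0.63 and -0.43 for control arrays 1, 2 and 3. Since this includes miR-199b-5p, it describes single arrays and does not measure the separation of the groups. In a dissected tissue more cells of a type and more RNA per cell cannot be told apart.

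**Figure D3:**
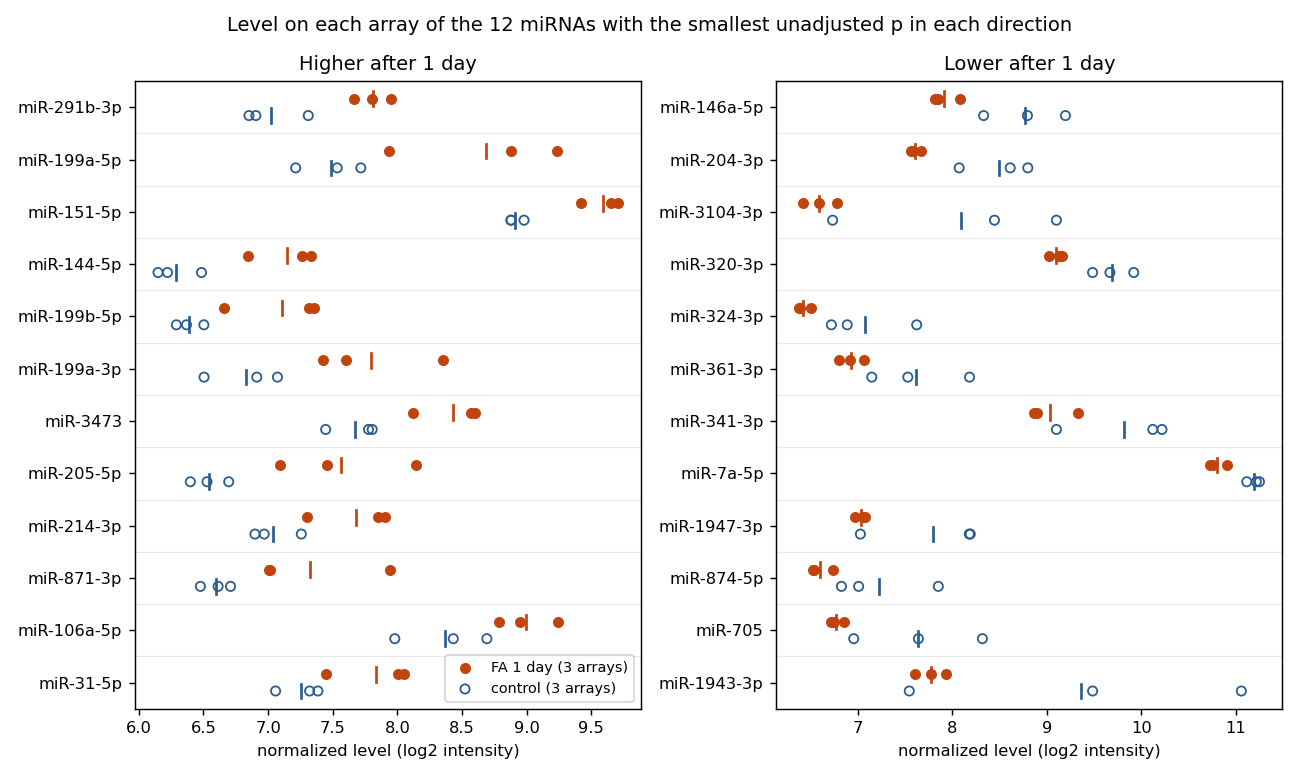
Normalized level (log2 intensity) on each array for the 12 members with the smallest unadjusted p among the higher ones (left) and among the lower ones (right), with filled points for the 3 FA 1 day arrays drawn above open points for the 3 control arrays and a bar at each mean. On the left the groups do not overlap for any of the 12; on the right they overlap for miR-3104-3p, miR-341-3p, miR-1947-3p and miR-1943-3p, where 1 control array lies within or below the FA 1 day values.

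Markers of blood, vessels and epithelium also varied between arrays, and their part in the differences was not tested. Red cell miRNAs come from the miR-144 and miR-451 cluster and from miR-486. miR-144-5p measured 7.34, 7.26 and 6.84 in FA 1 day and 6.22, 6.15 and 6.48 in control. No control array detected it, so it was at least 1.52-fold higher (measured means 7.15 and 6.28, limma adjusted p = 0.636). Its partner miR-144-3p had 10.77, 11.83 and 10.14 against 8.99, 10.88 and 10.07, and these ranges overlap. miR-451, the most abundant red cell miRNA and a product of the same precursor transcript, showed no such shift, with 11.95, 12.21 and 12.05 in FA 1 day and 12.11, 12.47 and 12.05 in control. Of the 4 red cell members 3 were higher and 1 lower, with a median of 0.65 that ranged from 0.40 without FA 1 day array 2 to 0.80 over the single arrays left out. For the 3 detected on all 6 arrays, which leaves out miR-144-5p, the median was 0.44. Over all 4, with miR-144-5p included, the median deviation by array was 0.30, 0.49 and -0.07 in FA 1 day and -0.38, 0.10 and -0.25 in control. Array 4 was the lowest of the FA 1 day arrays here as well. As miR-144-5p entered through the FA 1 day arrays alone, these values do not measure the separation of the groups.

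miR-223-3p and miR-142-3p were highest on 1 exposed array. miR-223-3p, made by granulocytes and monocytes, was at 7.99, 10.14 and 7.50 in FA 1 day bulbs, against 7.91, 7.79 and 7.72 in control bulbs. Its difference of 0.74 rested on FA 1 day array 2 and was -0.06 without that array. miR-142-3p, found in most blood cells, was likewise highest on that array at 10.33, with 9.23 and 8.87 on the other FA 1 day arrays, and control replicate 2 was low at 6.51, against 9.47 and 8.79 on controls 1 and 3. The 4 leukocyte members had a median difference of 0.58, which was 0.23 without control replicate 2 and -0.01 without FA 1 day array 2. miR-150-5p, a lymphocyte miRNA, lay the other way at 8.41, 8.54 and 8.46 in FA 1 day and 8.84, 9.06 and 8.29 in control, a difference of -0.26. By array their median deviation was -0.11, 1.22 and -0.23 in FA 1 day, against 0.22, -0.61 and -0.19 in control, which sets FA 1 day array 2 apart. Among vessel miRNAs, the endothelial miR-126-3p had 11.83, 11.69 and 11.83 after FA and 11.25, 8.58 and 11.55 in control. The groups are separated, but the difference of 1.32 was 0.38 without control replicate 2. miR-143-3p and miR-145-5p, of smooth muscle and pericytes, differed by 0.21 and -0.02.

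miR-205-5p, a miRNA of stratified and glandular epithelium, measured 8.15, 7.45 and 7.10 in FA 1 day bulbs and 6.40, 6.70 and 6.53 in control bulbs. Only 1 control array detected it, and the groups differed by 1.03 (95% interval 0.23 to 1.82, limma adjusted p = 0.636). As miR-205-5p entered through the FA 1 day arrays alone, this difference and its interval are no independent evidence of a change. miR-31-5p, also abundant in epithelium, had 8.01, 8.05 and 7.45 in FA 1 day, against 7.06, 7.39 and 7.32 in control, a difference of 0.58. miR-203-3p, a keratinocyte miRNA, overlapped between the groups and differed by 0.15. Liver miR-122-5p was detected on none of the 6 arrays. Of the muscle markers, miR-206-3p was detected on none, miR-1a-3p on 1 FA 1 day array and no control array, and miR-133a-3p on 2 FA 1 day arrays and all 3 control arrays, with means of 6.63 in FA 1 day and 7.10 in control. By contrast, neuronal miR-124-3p was the brightest probe on every one.

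The 5 members with the seed AAAGUGC that were detected on all 6 arrays had higher means after 1 day, with a median difference of 0.64. A sixth, miR-20b-5p, entered only through the FA 1 day arrays. These miRNAs are best known for restraining cell cycle inhibitors and pro-apoptotic messengers in dividing cells. miR-20a-5p was at 9.56, 9.89 and 9.44 in FA 1 day and at 8.68, 8.40 and 8.46 in control. The groups did not overlap, and the difference of 1.12 (standard error 0.61, limma adjusted p = 0.679) was 1.06 without control replicate 2. miR-106a-5p had 9.25, 8.79 and 8.95 against 8.43, 7.98 and 8.69, a difference of 0.63. miR-17-5p had 8.87, 9.24 and 8.73 against 8.14, 8.40 and 8.38, which gives 0.64. Both were separated between the groups. miR-20b-5p was detected on no control array and was at least 1.20-fold higher (measured means 6.80 and 6.41, limma adjusted p = 0.699). miR-93-5p (10.50, 10.88 and 10.26 in FA 1 day, 10.27, 8.81 and 10.19 in control) and miR-106b-5p (10.93, 10.77 and 10.85, against 10.66, 10.99 and 10.73) overlapped. The median of the 5 was 0.43 without control replicate 2 and at most 0.79 when another array was left out. As their sequences are nearly identical, their probes may share signal, so they are not independent. Of the 12 members of the miR-17 and miR-92 clusters, 10 were detected on all 6 arrays. Of these, 8 were higher and 2 lower, 4 with separated groups, and the median was 0.56, or 0.29 without control replicate 2.

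The 3 members with the seed CAGUGCA also ran together. The DNA methyltransferase Dnmt1 is a known target of this family. miR-148a-3p measured 7.89, 7.87 and 7.25 in FA 1 day bulbs and 7.10, 6.81 and 7.07 in control bulbs, a difference of 0.68 with separated groups. miR-148b-3p had 9.69, 10.26 and 9.57, against 9.10, 8.62 and 9.59, and differed by 0.73. miR-152-3p had 8.20, 8.20 and 7.69 in FA 1 day, against 7.49, 6.60 and 7.82 in control, a difference of 0.73. For miR-148b-3p and miR-152-3p control array 3 reached into the FA 1 day range. The median of the 3 was 0.73, or 0.49 without control replicate 2, and under the other scalings it lay between 0.60 and 0.92.

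Other seeds spread around 0 or depended on control replicate 2. The seed GAGGUAG is that of the let-7 family, regulators of developmental timing and differentiation. Its 10 members had 6 higher and 4 lower, with a median of 0.20 that became -0.26 without control replicate 2. For the 9 detected on all 6 arrays, which leaves out miR-1961, 5 were higher and 4 lower. Their median was 0.10, or -0.40 without control replicate 2. let-7a-5p shows the pattern, with 10.46, 10.37 and 10.66 after FA and 10.46, 7.70 and 10.70 in control. miR-181a-5p was similar, at 11.42, 10.58 and 11.42 in FA 1 day and at 11.42, 7.38 and 11.45 in control. The miR-29 seed AGCACCA (median 0.47) and the miR-181 seed ACAUUCA (0.21) came to -0.15 and -0.20 without it. miR-27b-3p had the largest positive difference of all members, 1.34, from 9.78, 9.09 and 9.29 in FA 1 day, against 8.78, 6.28 and 9.09 in control, and this was 0.45 without control replicate 2. The 3 members with the seed CCCUGAG of the miR-125 family were all lower, with a median of -0.28, or -0.37 without that array.

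**Figure D4:**
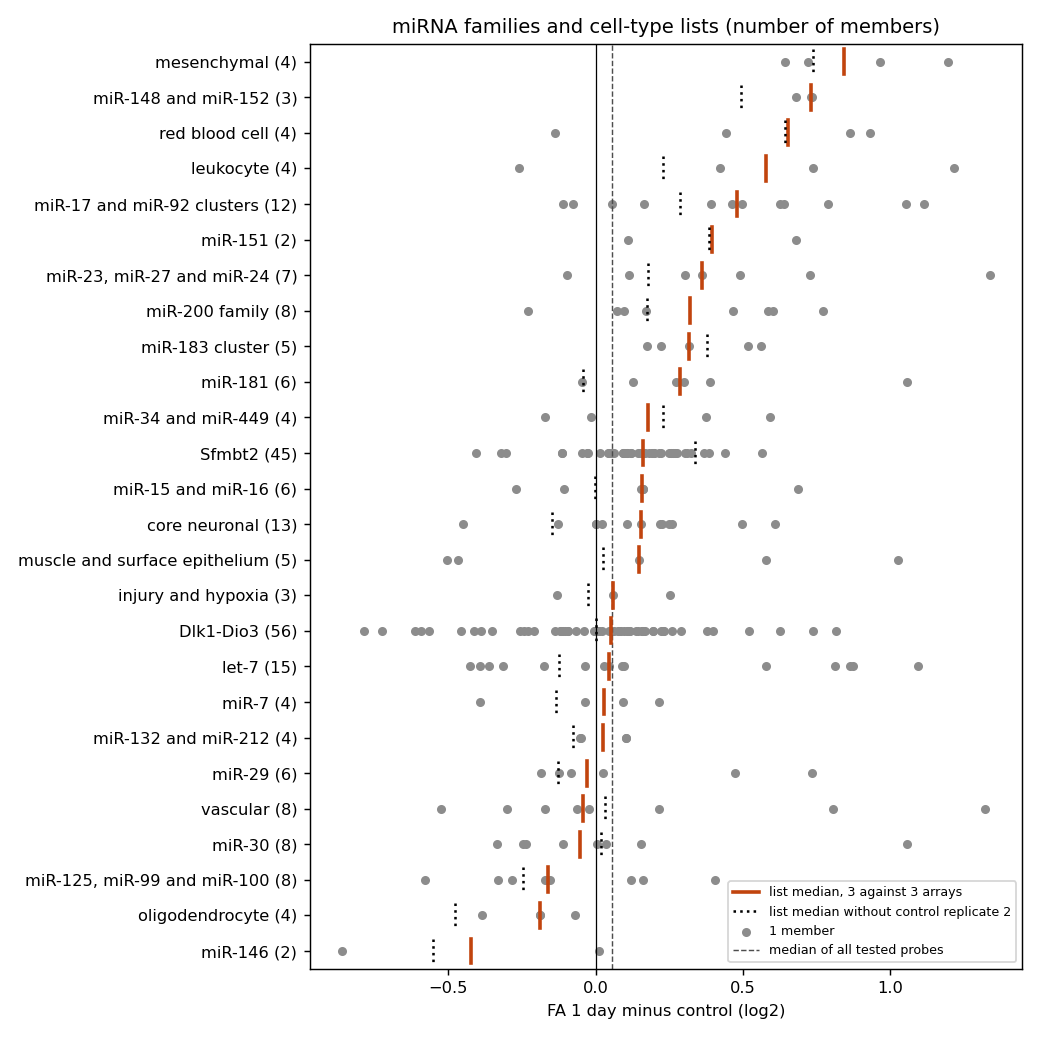
FA 1 day minus control (log2) for each member (grey points) of 26 families and cell-type lists, with the list median (orange bar), the median without control replicate 2 (dotted bar) and the median of all tested probes (dashed line, 0.06). Medians are over all members, also those that entered through 1 group alone. The mesenchymal list is at the top at 0.84, or 0.96 for its 3 members detected on all 6 arrays, and the miR-146 list at the bottom at -0.42. The let-7, injury and hypoxia, miR-132 and miR-212, and muscle and surface epithelium medians lie on the other side of the median of all tested probes under at least 1 other scaling.

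Several miRNAs outside these families also had separated groups with higher levels after 1 day. miR-151-5p, which lies in an intron of the focal adhesion kinase gene Ptk2, measured 9.65, 9.71 and 9.42 in FA 1 day and 8.88, 8.98 and 8.88 in control. The groups were 0.68 apart, with SDs of 0.151 and 0.058. miR-291b-3p, whose hairpin belongs to the embryonic stem cell cluster on chromosome 7, had 7.67, 7.81 and 7.95, against 6.85, 6.91 and 7.31. It had the smallest unadjusted p of all, 0.00507 by limma, with an adjusted p of 0.636 and a difference of 0.79. miR-3473 was at 8.12, 8.57 and 8.60 in FA 1 day and at 7.45, 7.78 and 7.81 in control. miR-871-3p, of an X-linked cluster known from the testis, had 7.01, 7.02 and 7.95 against 6.48, 6.61 and 6.71, and its difference of 0.72 was 0.41 without FA 1 day array 4. Its control levels lay near the detection minimum, so it may have entered through the FA 1 day arrays alone. miR-34c-5p, which takes part in the formation of motile cilia, had 8.13, 7.61 and 7.35 in FA 1 day bulbs and 7.07, 6.97 and 7.28 in control bulbs, a difference of 0.59. Of the 4 members of the miR-34 and miR-449 list, 2 were higher and 2 lower, with a median of 0.18. miR-34b-5p (0.37) and miR-34b-3p (-0.01) overlapped between the groups, and miR-34a-5p (-0.17) was separated in the lower direction. miR-3066-5p was detected on no control array and was at least 1.26-fold higher, with measured means of 6.88 and 6.39 and a limma adjusted p of 0.672.

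The miR-183 cluster, a set of 3 hairpins expressed in sensory cells such as olfactory neurons, leaned the same way. All 4 members detected on the 6 arrays had higher means, with a median of 0.27, or 0.32 without control replicate 2 and 0.17 to 0.38 over all single arrays left out. miR-183-5p measured 12.78, 12.59 and 12.33 in FA 1 day bulbs, against 11.69, 12.17 and 12.28 in control bulbs, a difference of 0.52 between separated groups (limma adjusted p = 0.656). miR-182-5p was also separated, at 12.84, 12.70 and 12.70 against 12.47, 12.66 and 12.59, though by only 0.17. miR-96-5p overlapped and differed by 0.32. The miR-200 family, which takes part in the differentiation of olfactory neurons, had 6 members higher and 1 lower among the 7 detected on all 6 arrays, with a median of 0.17, or 0.16 without control replicate 2. Its brightest member, miR-141-3p, had 13.84 on 5 arrays and 13.55 on control replicate 2.

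The lower side was led by miR-146a-5p, which is induced by NF-kappaB and dampens Toll-like receptor signalling. It measured 8.08, 7.82 and 7.84 in FA 1 day bulbs and 9.20, 8.79 and 8.33 in control bulbs. No FA 1 day array reached the lowest control array, and the means of 7.91 ± 0.14 and 8.77 ± 0.43 (SD, n = 3 each) differed by -0.86. The 95% interval ran from -1.45 to -0.27 (limma adjusted p = 0.636), and the value was -0.85 without control replicate 2. Leaving out any 1 of the 6 arrays kept the difference between -1.08 and -0.65. miR-146b-5p, which has the same seed but comes from another chromosome, measured 8.98, 8.63 and 8.74 in FA 1 day and 9.16, 8.25 and 8.92 in control. Its difference was 0.01, which was -0.25 without control replicate 2.

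miR-7a-5p, abundant in the bulb and known in mice to restrain Pax6 in newborn dopaminergic neurons, had narrow replicates in both groups. It was at 10.73, 10.91 and 10.77 in FA 1 day, against 11.12, 11.25 and 11.22 in control, a difference of -0.39 with a 95% interval from -0.75 to -0.03 and a limma adjusted p of 0.656. miR-320-3p had 9.12, 9.02 and 9.16 against 9.67, 9.92 and 9.48, which is -0.59. miR-204-3p, from an intron of the channel gene Trpm3, had 7.58, 7.56 and 7.67 in FA 1 day and 8.80, 8.61 and 8.07 in control, a difference of -0.89. All 3 were separated between the groups. By comparison, miR-7b-5p of the miR-7 list differed by -0.04 with overlapping groups, or by -0.27 without control replicate 2. miR-222-3p, which is found in vessel walls, had 10.52, 9.87 and 10.73 in FA 1 day, against a narrow 10.91, 10.91 and 10.88 in control, a difference of -0.53. miR-324-3p was detected on no FA 1 day array (6.38, 6.50 and 6.38, against 6.72, 7.62 and 6.88) and was at least 1.42-fold lower, with measured means of 6.42 and 7.07 and a limma adjusted p of 0.636. miR-361-3p and miR-874-5p, at -0.69 and -0.63, were separated too, but control replicate 2 was their highest array, and without it the differences were -0.41 and -0.32. The FA 1 day levels of miR-874-5p lay near the detection minimum, so it may have entered through the control arrays alone.

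A further set of lower miRNAs was high on controls 1 and 2 and not on control 3. miR-3104-3p measured 6.41, 6.78 and 6.58 in FA 1 day bulbs and 8.44, 9.10 and 6.73 in control bulbs. Its difference of -1.50 had a limma adjusted p of 0.636, and without control replicate 3 it became -2.18 with an adjusted p of 0.0248, the only call that any left-out array produced. The array left out was the control array that lay within its FA 1 day range. Its FA 1 day levels were near the detection minimum, and it may have entered through the control arrays alone. This call is therefore no independent evidence of a change. miR-1943-3p had 7.60, 7.93 and 7.77 against 11.06, 9.48 and 7.54, and its difference of -1.59 was the largest negative one. miR-341-3p, miR-1947-3p and miR-705 (-0.79, -0.76 and -0.87) had their lowest control level on control 3 as well, as had miR-711 and miR-294-5p, a pair named after their values were seen. miR-711 measured 7.26, 7.38 and 7.77 in FA 1 day and 9.31, 9.21 and 7.30 in control. miR-294-5p had 8.86, 9.38 and 9.04, against 10.78, 10.93 and 9.04. For each of these 7 miRNAs the highest and the lowest control array were farther apart than the means of the groups.

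Neuronal miRNAs overlapped between the groups with few exceptions. miR-124-3p, which maintains neuronal identity, and miR-9-3p were the brightest probes, and quantile normalization gave each of them 1 value on all 6 arrays (15.02 and 14.48), so a difference of these could not be seen. Of 13 core neuronal members 9 were higher, 2 lower and these 2 equal, with a median of 0.15 that was -0.15 without control replicate 2. miR-138-2-3p, a product of 1 of the miR-138 hairpins, was separated at 8.74, 8.73 and 8.99 in FA 1 day, against 8.13, 8.10 and 8.41 in control. The main product of these hairpins, miR-138-5p, a regulator of dendritic spines, lay the other way at -0.45 with overlapping groups. The activity-regulated miR-132-3p differed by 0.10. The 4 oligodendrocyte members, of the miR-219 and miR-338 families, were all lower, with a median of -0.19 that ranged from -0.48 without control replicate 2 to -0.08 without control replicate 1. miR-338-5p, the one with the smallest p, measured 8.04, 7.24 and 8.03 in FA 1 day and 8.20, 7.91 and 8.36 in control, so these groups overlap.

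Both arms were measured for 97 hairpins. In 34 both arms were higher after 1 day, in 21 both were lower, in 40 they had opposite signs, and in 2 (miR-9 and miR-124) 1 arm had equal means. The median gap between the arms was 0.31, and 3 hairpins exceeded 1. The widest was miR-291b, with -0.65 for its 5p and 0.79 for its 3p product, and this gap of -1.44 was -1.27 without control replicate 2. The 5p product had 7.10, 7.55 and 7.19 in FA 1 day and 8.52, 8.16 and 7.12 in control, again with controls 1 and 2 high. For let-7d the gap of 1.24 became 0.12 without control replicate 2, where its 5p product was at 8.43, against 11.29 and 11.19 on controls 1 and 3. miR-204 had 0.08 for the 5p and -0.89 for the 3p product. Since the 5p level was 6.82 on control replicate 2, against 9.06 and 9.003 on the other controls, the 5p difference was -0.65 without that array and the gap 0.18.

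**Figure D5:**
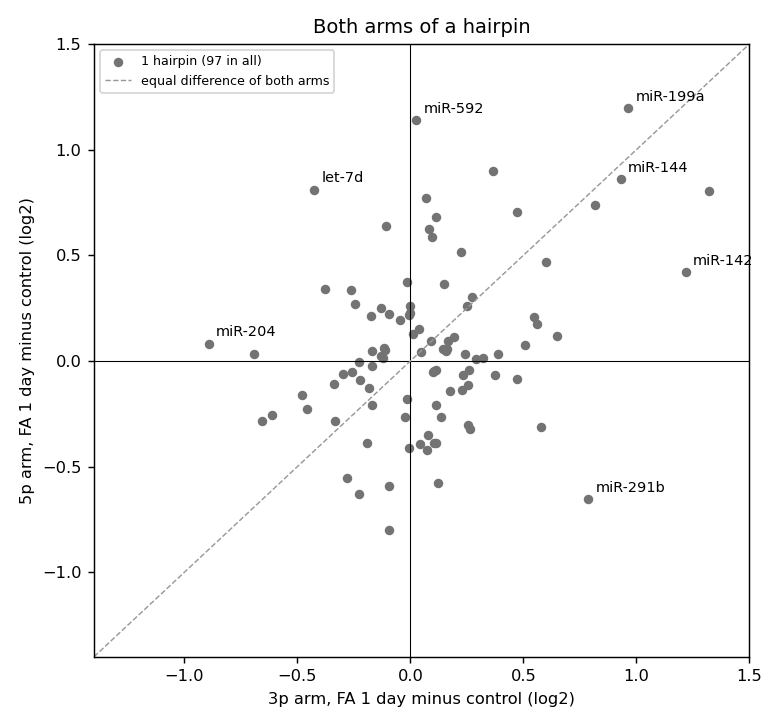
Each point is 1 of 97 hairpins with both arms among the members; the horizontal axis is the difference of the 3p product and the vertical axis that of the 5p product, both FA 1 day minus control (log2). On the dashed line both arms differ equally; miR-199a and miR-144 lie near it at the upper right, while miR-291b, let-7d, miR-592 and miR-204 lie farthest from it.

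Among the largest lists, Dlk1-Dio3 had a median close to that of all tested probes, and the Sfmbt2 median lay above it. Of 56 members from the imprinted Dlk1-Dio3 region, a cluster expressed mainly in neurons, 32 were higher and 24 lower (28 and 21 of the 49 detected on all 6 arrays), with a median of 0.05. Relative to the median of all tested probes this was -0.003, and -0.03 to -0.01 under the other scalings. The extremes were miR-369-3p at 0.81 and miR-341-3p at -0.79. A further 45 members were taken by name, miR-297, miR-466, miR-467 or miR-669, after the rodent-specific cluster in an intron of Sfmbt2. Their positions were not used, and miR-466j lies on chromosome 10. Of the 45, 37 were higher and 8 lower (30 and 8 of the 38 detected on all 6 arrays), beside 261 higher among all 456 members. Above the median of all tested probes were 33 of the 45 in these values and 35 in the deposited ratios. This count was 29 under median scaling and 29 without scaling between arrays. Their median of 0.16 lay 0.10 above the median of all tested probes in these values, and 0.10 to 0.20 above it under the other scalings. Without control replicate 2 their median was 0.34, with 42 higher, against 0.03 over all tested probes. miR-466b-5p was separated at 7.30, 7.27 and 7.19 in FA 1 day, against 6.80, 7.06 and 6.58 in control. Many members with these names are near-identical in sequence, so their probes may share signal.

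Detection itself differed for some members. Signal reached the minimum on all 6 arrays for 388 members, on all 3 arrays of FA 1 day but not of control for 56, and of control but not of FA 1 day for 12. As a member could enter through the group where it was brighter, these last counts are no measure of change. Just inside the minimum were miR-466m-5p and miR-346-3p, whose lowest arrays had 30 and 30.2 intensity units, and just outside were miR-496-3p and miR-297a-5p at 29.2. With the members split by level into 3 sets of equal size, the median difference was 0.09 for the dim, 0.02 for the middle and 0.05 for the bright members. The sets include members that entered through 1 group alone, which can shift these medians. The spread was wider in the controls in every set, with median SDs of 0.144, 0.209 and 0.1997 in FA 1 day, against 0.269, 0.409 and 0.372 in control.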

How the data were processed

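The authors deposited a raw table that gives, per the file headers, foreground intensity and foreground minus background intensity for 12312 spots (2673 probes) per array, and a value table that is a ratio. Checked against the raw table, each deposited ratio equals the median of a probe's spots over background divided by 1 factor per array (100% of values within 1%). Per the labels' protocols, total RNA was labelled with Hy3. Image software is not given in the sources used here. From the raw intensity, background was corrected with normexp (offset 50, limma 3.58.1, R 4.3.3), the 4 spots of a probe were averaged, arrays were quantile normalized over 1084 miRNA probes, and log2 was taken. Quantile normalization hides a shift shared by most miRNAs. A group-means model (lmFit, eBayes) used all 9 arrays, with two-sided tests and Benjamini-Hochberg adjustment over 462 probes detected on all arrays of a group. Median background was 35 to 41 intensity units and the median signal 287.5 to 326.5 on the 6 arrays, each detecting 461 to 520 mouse probes. The number of arrays limits the precision.

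Named are the 12 higher and 12 lower members with the smallest unadjusted p, the 8 brightest, those detected in 1 group only, 2 per list, 4 hairpins and those at the detection minimum; further members of the described groups were added after their values were seen. The members, lists and rules were chosen with earlier results of these data known. "At least N-fold" sets the brighter mean against the higher of a probe's own level and the lowest detected level per array. On simulated log2 levels with planted changes of 2 in either direction, the fit recovered most of the changed probes. These changes were larger than any difference among the members. The simulated spread was that of the FA 1 day arrays, and no array stood apart. Background correction and normalization were not simulated, so this does not show that smaller changes would be found. Same-numbered arrays correlated at 0.157 (replicate 1) and 0.333 (replicate 2) in their deviations; only 2 numbers are shared, so arrays were not treated as pairs. The labels give no slides or scan days. Alternatives changed background correction, scaling, spot summary, filter, variance model, array weights, block and arrays.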

Additional observations from a re-analysis of the deposited data

Results flagged for a closer look

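Outside the named probes, 1 of 1495 unnamed probes was detected on all 3 FA 1 day arrays and on no control array, a signal in probes that enter none of the comparisons above. In the opposite direction 6 unnamed probes were detected on all 3 control arrays and on no FA 1 day array, and 266 were detected on all 6.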

How the results depend on the processing

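No alternative with all arrays gave a limma call at an adjusted p under 0.05, where 29 probes had an unadjusted p under 0.05. Leaving out 1 array gave 0 to 1 calls. The 1 call, without control replicate 3, was miR-3104-3p, which was near the detection minimum in FA 1 day. The unadjusted count was 63 of 1027 probes with no detection filter, 104 with array weights, 65 without control replicate 2 and FA 7 days replicate 3, and 14 to 67 over the arrays left out (14 without FA 1 day replicate 1, 67 without control replicate 3, 48 without FA 7 days replicate 3). With the replicate block, a paired fit by array number, 14 probes had an unadjusted p under 0.05 and 0 were called. Groups did not overlap for 69 of the 462 tested probes, and for 161 of them (99 higher, 62 lower) without control replicate 2. That alternative was chosen after seeing the data, and 2 control arrays remain in it. Groups with fewer arrays separate more often when nothing differs, so these counts cannot be set against each other directly. The number of members was 503 at a minimum of 20 and 385 at 50. Of 74 named miRNAs under 22 alternatives, 1564 differences kept sign and side of the threshold, 1 gained the threshold and 38 changed sign; the cause was not tested.

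The named differences that changed sign were small or rested on 1 array. Under median scaling miR-151-3p was -0.112, miR-7a-1-3p -0.0491, miR-592-3p -0.269 and miR-146b-5p -0.0582, and with no normalization -0.133, -0.0701, -0.290 and -0.0792. The median of all tested probes was -0.0925 and -0.113 under these settings; miR-7a-1-3p and miR-146b-5p lay above it, miR-151-3p and miR-592-3p below. miR-592-3p was -0.0646 with floored signal, and miR-146b-5p -0.0339 with the median of spots and -0.130 in the deposited values. Array weights gave miR-204-5p -0.403, miR-592-3p -0.201 and miR-146b-5p -0.175, and the replicate block gave miR-21-3p 0.0329. Over the single arrays left out, ranges were -0.125 to 1.304 for let-7d-5p, -0.195 to 1.21 for miR-29b-3p, -0.155 to 0.799 for miR-29c-3p, -0.000237 to 0.417 for miR-7a-1-3p, -0.0521 to 0.370 for miR-212-3p, -0.655 to 0.465 for miR-204-5p, -0.168 to 0.268 for miR-592-3p and -0.252 to 0.203 for miR-146b-5p, with the lowest value without control replicate 2 except for miR-212-3p (without control replicate 1; -0.00607 without control replicate 2). These values without control replicate 2 were the same when FA 7 days replicate 3 was left out too. miR-223-3p ranged from -0.0641 without FA 1 day replicate 2 to 1.26.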
